A study of Rattus norvegicus with 8 samples.

Results

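Signals of alpha and beta tubulin genes were read on arrays of right kidneys from 10-week-old female F344/NSlc rats, with 1 array per sample. There were 4 sham-operated samples and 4 from rats with unilateral nephrectomy, an operation that removes 1 kidney so that the kidney left behind grows and takes on more filtration. The labels name no transgene or drug in either group. They differ on timing: the design text puts sampling at 2 days after surgery for both groups, but the source names have day 1 against the sham samples and day 2 against the nephrectomized samples. Should the latter hold, every difference given here is one of time as well as of surgery, and these cannot be told apart. The members were selected by gene name, with the sham and nephrectomized signals of these same arrays already known, and comprise 10 genes: Tuba1a, Tuba1b, Tuba1c, Tuba4a, Tuba8, Tubb2a, Tubb2b, Tubb3, Tubb5 and Tubb6. Their differences between the groups are therefore a description. Through the RefSeq accession of each probe 7 of the 10 were matched, by 12 probes out of 41012 on the array. Tuba1a, Tuba1b and Tubb2a were matched by none and were not analysed here.

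Alpha and beta tubulin pair into the dimers from which microtubules are built, the filaments that form the mitotic spindle, carry vesicles and organelles and make up the shaft of the cilium. Mammals express several isotypes of each, encoded by separate genes that differ mostly in their acidic C-terminal tails. Cells also adjust tubulin to demand: when free dimers are plentiful, Ttc5 binds nascent tubulin chains on the ribosome and directs decay of the mRNA being translated. In the kidney, tubular epithelial cells hold microtubule bundles along the apical to basal axis and usually bear a primary cilium.

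The signal of each array was expressed as log2 relative to that array's 75th percentile, so that a value of 1 means 2-fold above it. The 75th percentile signal lay between 388 and 643, from 59.4% to 66.0% of probes were well above background, and no spot was saturated. All 12 member probes were well above background on all 8 arrays. All 16 markers of proximal tubule, loop and distal nephron were well enough measured to be tested, and none passed the limma test described below. Slide position and group cannot be told apart, because positions 1 and 2 of both slides carried sham samples and positions 3 and 4 nephrectomized ones. In whole tissue, more cells of a type and more RNA per cell cannot be told apart either.

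In the nephrectomized kidneys every matched isotype except Tubb3 had a higher signal. By the probe with the highest mean signal of each gene, Tuba1c was 28.2% higher, Tuba4a 42.9%, Tubb5 50.8%, Tubb6 52.4%, Tubb2b 58.2% and Tuba8 59.9%. For these 6 of 7 genes every nephrectomized array lay above every sham array, as was so for 7.05% of the 20923 features tested. With limma fitted over all features and a Benjamini-Hochberg adjusted p under 0.05, 5 members were called higher, namely Tuba1c, Tuba4a, Tuba8, Tubb5 and Tubb6, and 0 lower, against 0.75% of all features called higher and 0.287% called lower. The median difference of the 7 members was 0.59, beside 0.01 for all features. Nothing is read from these counts, since the members were picked with this contrast known. Leaving out single arrays changed the count of called members to 2, 1, 2 and 2 without sham replicates 1, 2, 3 and 4 and to 3, 2, 1 and 2 without nephrectomized replicates 1, 2, 3 and 4. Tubb5 was among them each time, and Tuba1c and Tuba8 were never among them. Tuba1c was also not called with quantile scaling or with the array median in place of the 75th percentile. With slide as a block 3 were called, Tuba4a, Tubb5 and Tubb6. Within slide 1 and within slide 2, where each group has 2 arrays, limma called 0 members and 0 features of any kind, while 1884 and 1745 features were under an unadjusted p of 0.05.

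**Figure D1:**
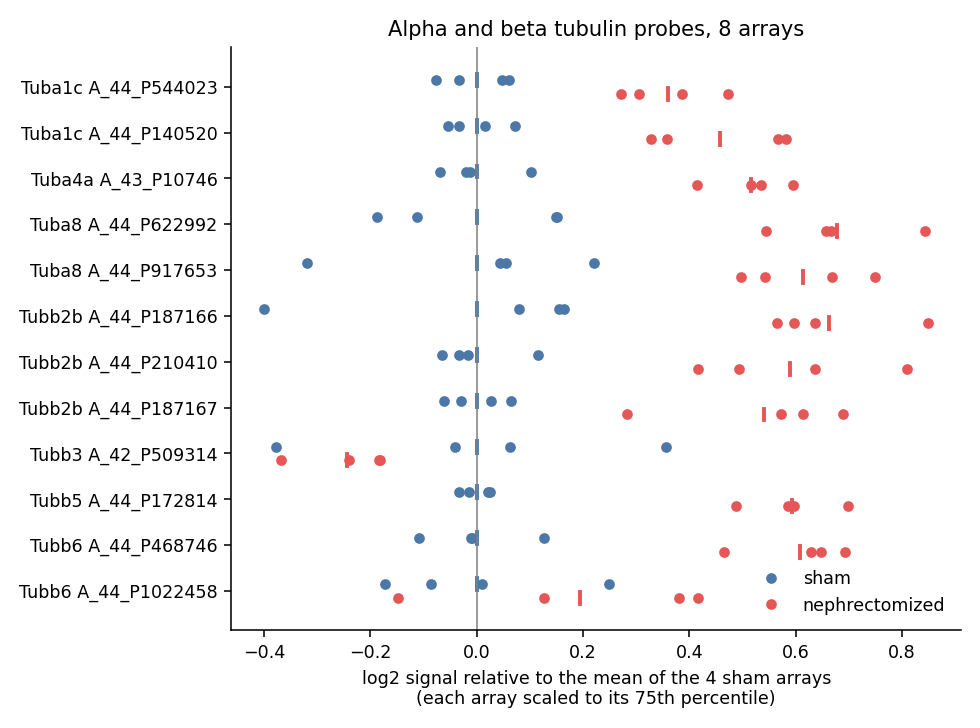
Log2 signal of the 12 tubulin member probes on each of the 8 arrays, drawn as the distance from the mean of the 4 sham arrays (x axis), with 1 line per probe (y axis). Points are arrays and the short bars are group means. For 10 of the 12 probes all 4 nephrectomized points lie to the right of all 4 sham points.

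Promoter sequences of 6 members are shown, the 5 called higher and Tubb3, whose signal was not higher, with and without the motifs searched. Those of the other members, among them Tubb2b, which was higher but not called, are not shown. The sequences are the 160 bases before the annotated start, from RefSeq on build GRCr8, with CCAAT and TATAA in capitals on either strand.

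Tuba1c, chr7:132070824-132070983, plus strand: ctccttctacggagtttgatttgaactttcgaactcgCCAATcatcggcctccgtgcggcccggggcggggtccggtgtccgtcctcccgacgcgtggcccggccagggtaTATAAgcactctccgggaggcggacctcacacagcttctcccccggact
Tuba4a, chr9:84162585-84162744, minus strand: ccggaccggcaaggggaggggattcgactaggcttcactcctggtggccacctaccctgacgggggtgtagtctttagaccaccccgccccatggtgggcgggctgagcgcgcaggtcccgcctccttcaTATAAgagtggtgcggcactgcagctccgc
Tuba8, chr4:156112112-156112271, plus strand: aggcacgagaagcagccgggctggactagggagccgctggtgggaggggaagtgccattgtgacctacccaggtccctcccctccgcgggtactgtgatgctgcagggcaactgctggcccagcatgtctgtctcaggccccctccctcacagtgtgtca
Tubb5, chr20:2917417-2917576, plus strand: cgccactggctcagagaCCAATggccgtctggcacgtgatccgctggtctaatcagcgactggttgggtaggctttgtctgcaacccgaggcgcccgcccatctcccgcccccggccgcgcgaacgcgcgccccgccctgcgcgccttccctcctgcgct
Tubb6, chr18:63213127-63213286, plus strand: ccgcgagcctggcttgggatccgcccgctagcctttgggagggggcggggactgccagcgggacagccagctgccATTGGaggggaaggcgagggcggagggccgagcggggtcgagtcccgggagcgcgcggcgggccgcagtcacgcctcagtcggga
Tubb3, chr19:68365527-68365686, plus strand: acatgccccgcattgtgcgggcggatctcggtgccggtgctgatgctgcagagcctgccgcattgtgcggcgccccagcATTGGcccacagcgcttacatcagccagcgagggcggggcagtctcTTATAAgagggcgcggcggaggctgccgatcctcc

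The search covered the 250 bases before the start in all 10 members and both strands. CCAAT, the core of the box bound by NF-Y, was present in 7 of 10, against 34.3% of 27457 promoters of the same length. GGGCGG, the GC box, was present in 8, against 32.4%. TATAA was present in 5, against 24.1%, and TTTGAA, the cell cycle homology region of many mitotic genes, only in Tuba1c, against 16% of all promoters. None of the motifs contains another. CCAAT was not found in Tuba4a, Tuba8 or Tubb2a, and Tuba8 held none of the 4 motifs. Tubb3 holds CCAAT 81 bases before its start, Tubb6 85 and Tubb5 143, and Tuba1c holds it at 123 and 242. A match is a description of letters and not a binding site, and a missing match says nothing of the factor.

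Tuba1c is one of the widely expressed alpha isotypes. Its probe A_44_P544023 read 4.67, 4.54, 4.66 and 4.58 in sham replicates 1 to 4 and 4.88, 4.92, 4.999 and 5.08 in nephrectomized replicates 1 to 4. The group means were 4.61 ± 0.07 and 4.97 ± 0.09 (SD, n = 4 each), a difference of 0.36 ± 0.06 (SE). The groups did not overlap, and the nearest arrays were 0.21 apart. Its other probe, A_44_P140520, differed by 0.46 ± 0.07 (SE), also without overlap, with 0.33 on slide 1 and 0.58 on slide 2.

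Tuba4a encodes the alpha isotype that lacks the C-terminal tyrosine in its gene. Its probe A_43_P10746 read 5.50, 5.45, 5.51 and 5.62 in sham and 6.04, 6.06, 6.12 and 5.94 in nephrectomized kidneys. All 4 nephrectomized arrays were above the highest sham array, with means of 5.52 ± 0.07 and 6.04 ± 0.07 (SD, n = 4 each) and a difference of 0.51 ± 0.05 (SE). Tuba8 is a divergent alpha isotype known from muscle, testis and brain. Its probe A_44_P622992 read 0.18, 0.44, 0.44 and 0.10 in sham and 0.96, 0.95, 0.83 and 1.13 in nephrectomized kidneys, a difference of 0.68 ± 0.11 (SE), without overlap. Its dimmer probe, A_44_P917653, differed by 0.61 ± 0.13 (SE) and also separated the groups, although normexp background correction brought this to 0.44.

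Among the beta isotypes, Tubb5 is the broadly expressed form found in most dividing cells. Its sham arrays were closer together than those of any other member probe. Its probe A_44_P172814 read 3.63, 3.68, 3.68 and 3.64 in sham replicates and 4.15, 4.24, 4.26 and 4.36 in nephrectomized replicates. The means were 3.66 ± 0.03 and 4.25 ± 0.09 (SD, n = 4 each) and differed by 0.59 ± 0.05 (SE), with 0.46 between the nearest arrays of the groups. The difference was 0.54 on slide 1 and 0.64 on slide 2.

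Tubb2b, a beta isotype best known from developing neurons, had 3 probes. Probe A_44_P187166 read 4.62, 5.17, 5.09 and 5.18 in sham and 5.61, 5.58, 5.65 and 5.86 in nephrectomized kidneys, a difference of 0.66 ± 0.15 (SE). Sham replicate 1 stood below the other sham arrays on this probe, and without it the difference was 0.53. The probes A_44_P210410 and A_44_P187167, in which that array did not stand apart, differed by 0.59 ± 0.10 and 0.54 ± 0.09 (SE). All 3 probes separated the groups. Tubb2b was not called by the probe that represents the gene, but it was called, with its other probes, when every probe was tested on its own.

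The probes of Tubb6, a beta isotype of broad expression, did not match each other. Probe A_44_P468746 read 0.75, 0.85, 0.98 and 0.85 in sham and 1.49, 1.32, 1.505 and 1.55 in nephrectomized kidneys, a difference of 0.61 ± 0.07 (SE) without overlap. Probe A_44_P1022458 read -2.32, -2.08, -2.50 and -2.41 in sham and -2.47, -1.91, -2.20 and -1.95 in nephrectomized kidneys. Here the groups overlapped, and the difference of 0.19 ± 0.16 (SE) was 0.0047 on slide 1 and 0.38 on slide 2.

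Tubb3, the beta isotype used as a marker of neurons, was the exception. Its probe A_42_P509314 read -3.21, -3.61, -3.95 and -3.51 in sham and -3.75, -3.94, -3.75 and -3.81 in nephrectomized kidneys. The groups overlapped, and the difference was -0.24 ± 0.16 (SE), -0.43 on slide 1 and -0.05 on slide 2. With normexp background correction it was 0.03, so no direction holds for this gene. Of 13 markers of neurons and Schwann cells on the array 5 were tested and 0 passed, and Nefl, Th, Chga, Elavl4 and S100b were among those not well above background on any array. The summed signal of the 13, in units of the array's 75th percentile, was 1.505 to 1.92 in sham and 1.77 to 2.10 in nephrectomized kidneys.

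**Figure D2:**
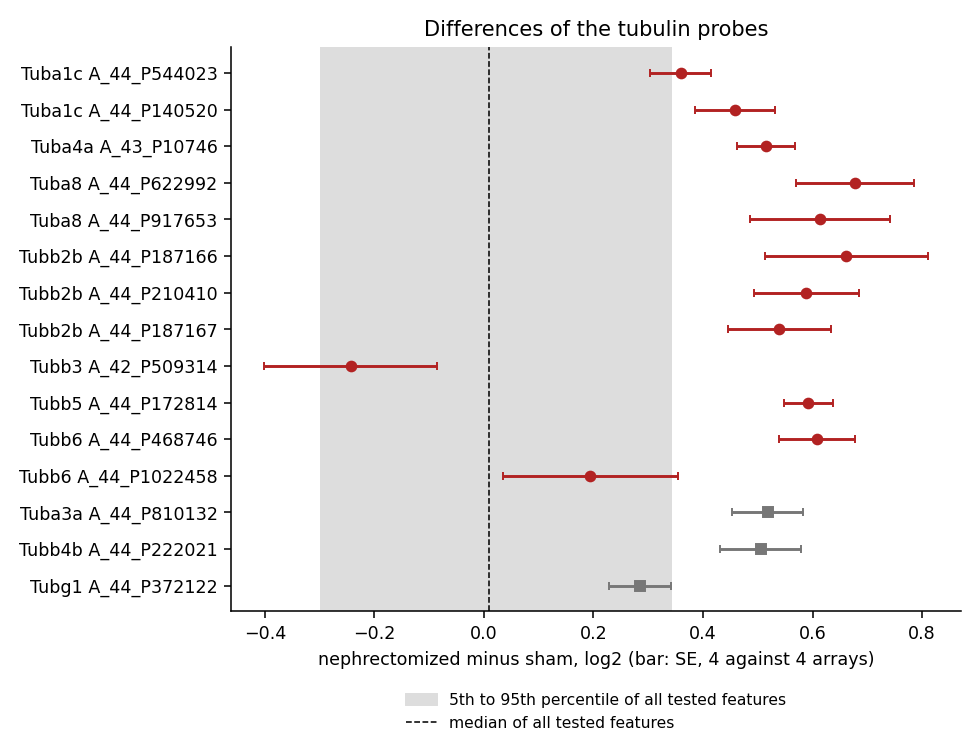
Difference between nephrectomized and sham kidneys in log2 (x axis) for each tested tubulin probe (y axis). Circles are members, squares other tubulin genes, and bars the SE from 4 and 4 arrays. The grey band spans the 5th to 95th percentile of all tested features, -0.30 to 0.34, and the dashed line is their median of 0.01. Of the members only Tubb3 and 1 probe of Tubb6 lie inside the band.

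Tubulin genes outside the member list were higher too. From a list of 10 other tubulin genes 5 were on the array, 3 were tested and 2 were called higher. Over all features 0.75% were called higher, and for 7.05% every nephrectomized array lay above every sham array. The list was chosen with earlier results of these data known, so nothing is read from the count. Tubb4b, a widely expressed beta isotype that is abundant in cilia, read 6.31, 6.39, 6.18 and 6.50 in sham and 6.80, 6.83, 6.93 and 6.83 in nephrectomized kidneys. It rose by 0.51 ± 0.08 (limma SE; limma adjusted p = 0.0364), without overlap. Tuba3a, an alpha isotype best known from testis, read 0.03, -0.05, -0.07 and 0.08 in sham and 0.51, 0.37, 0.62 and 0.56 in nephrectomized kidneys. It rose by 0.52 ± 0.07 (limma SE; limma adjusted p = 0.0245). Both calls were lost when any of 6 single arrays was left out, with limma adjusted p of up to 0.0958 for Tubb4b and 0.0897 for Tuba3a. Tubb4b remained called without sham replicate 4 or nephrectomized replicate 1, and Tuba3a without nephrectomized replicate 1 or 2. With slide as a block Tubb4b was not called. Tubg1, the gamma tubulin from which microtubules are nucleated, was at 0.29 ± 0.07 (limma SE; limma adjusted p = 0.0833), without overlap. Tubb4a and Tubal3 were not well above background on any array.

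How far each probe reads a single isotype cannot be told here, because tubulin genes resemble each other closely in their coding parts and the RefSeq table names 26 alpha or beta tubulin pseudogenes in the rat, 14 of them after Tuba1b. The scanner files give no probe sequences. The differences across probes are to be read with that limit.

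Most other genes of the microtubule machinery lay near the median of all 20923 features, which was 0.01. Of 17 tested genes of tubulin folding, the CCT chaperonin, prefoldin and the tubulin cofactors, 0 passed in either direction, with a median of 0.02 and a range from -0.10 to 0.11. Cct3 and Cct8, chaperonin subunits with the highest signals of that list, were at 0.06 ± 0.09 and 0.06 ± 0.06 (limma SE). Ttc5, the sensor of tubulin mRNA autoregulation, was at 0.06 ± 0.07, and Cnot11, a subunit of the deadenylase complex recruited by that pathway, at -0.09 ± 0.12. Neither passed.

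Of 15 dynein and dynactin genes, which move cargo towards microtubule minus ends, 0 passed, with a median of 0.03. Dctn3 and Dync1li2 were each at 0.02. Of 9 genes of the gamma-tubulin ring complex and nucleation 0 passed, with a median of 0.10, Akap9 at -0.02 and Tubgcp2 at 0.11. Of 8 tubulin modifying enzymes 0 passed, with a median of 0.13. The deglutamylase Agtpbp1 was at 0.19 ± 0.06 and Svbp, the partner of the vasohibin detyrosinases, at -0.10 ± 0.05 (limma SE). Of 13 primary cilium and intraflagellar transport genes 0 passed, with a median of -0.06, Ift20 at 0.09 and Ift27 at 0.13. For the 5 lists of folding, dynein, nucleation, modifying enzymes and cilium, counts of 0 at the adjusted threshold come from limma, and 3358 of all features were under an unadjusted p of 0.05.

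Among microtubule-binding proteins 1 gene passed. The 8 tested destabilising and severing proteins had a median of 0.19, and all 8 had positive values. Of them only Kif18a, a kinesin that limits chromosome movement in mitosis, passed. It rose by 1.07 ± 0.10 (limma SE; limma adjusted p = 0.0100) and was called in each of the 8 fits with 1 array left out. Of 19 stabilising and plus-end proteins 0 passed, with a median of 0.02, Mapt at -0.10 and Camsap3 at -0.01. Stmn1, which sequesters tubulin dimers, was at 0.76, and the spindle proteins Tpx2 and Prc1 were at 1.97 and 2.52. These were the largest values among the genes of these lists that did not pass, and are named after their values were seen. Sham means were -4.43 for Tpx2, -5.08 for Prc1 and -3.65 for Kif18a, so the differences of these 3 are taken from dim sham signals.

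**Figure D3:**
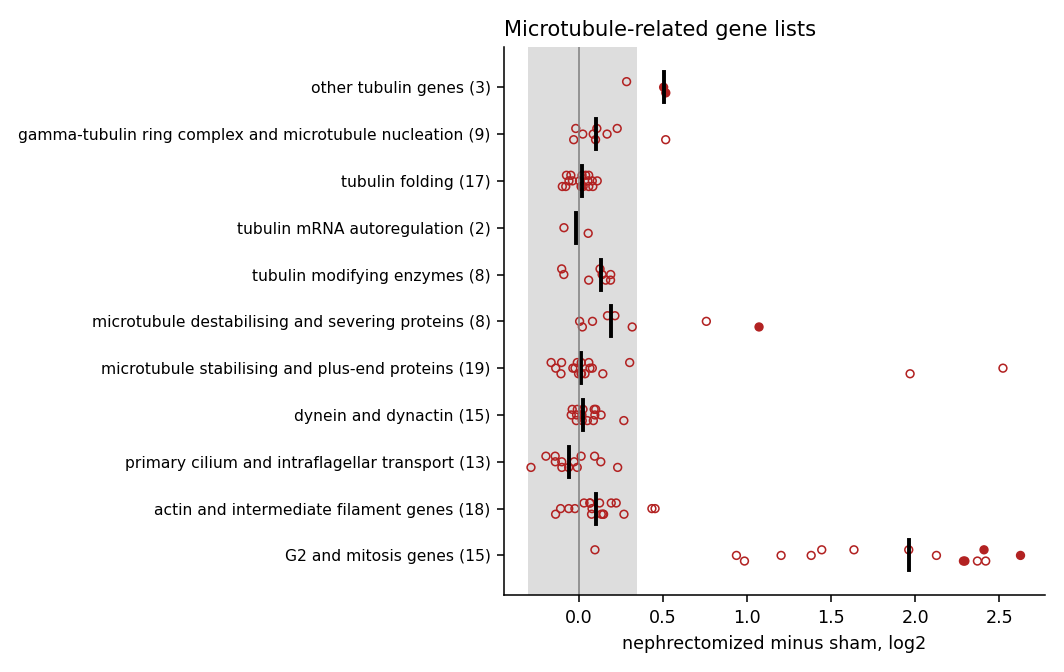
Nephrectomized minus sham in log2 (x axis) for the tested genes of 11 lists (y axis, with the number tested). Filled points passed limma's adjusted threshold, open points did not, black bars are list medians, and the grey band is the 5th to 95th percentile of all features. The medians of other tubulin genes, 0.51, and of G2 and mitosis genes, 1.96, lie to the right of the band.

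Actin and intermediate filament genes were set beside the tubulins. Of 18 tested actin and intermediate filament genes 0 passed, with a median of 0.10. Actb and Actg1, the cytoplasmic actins, were at 0.22 ± 0.07 (limma adjusted p = 0.182) and 0.27 ± 0.05 (limma adjusted p = 0.0597), and for each every nephrectomized array was above every sham array. Outside the naming rule, and named after their values were seen, Krt18 at 0.45 and Lmnb1, a nuclear lamin, at 0.44 were the highest of this list, and Krt19, a keratin, at -0.14 the lowest.

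Genes of G2 and mitosis were also higher in nephrectomized kidneys, with a wider spread among the arrays. Of 15 tested, 4 rose, Ect2, Ttk, Ccnb2 and Cdk1, and 15 had positive values, with a median of 1.96. Ect2, which drives cytokinesis, rose by 2.29 ± 0.36 (limma SE; limma adjusted p = 0.0379), the checkpoint kinase Ttk by 2.63 ± 0.43 (adjusted p = 0.0395) and the mitotic cyclin Ccnb2 by 2.41 ± 0.40 (adjusted p = 0.0413). Each of these 4 calls was lost when any array but nephrectomized replicate 1 was left out. Ttk and Ccnb2 were dim in sham kidneys, with means of -3.74 and -3.49, and Ect2 and Cdk1 less so, at -2.45 and -0.07. The mean of the 15 mitosis genes lay 0.80, 2.07, 1.54 and 2.57 above the sham mean in nephrectomized replicates 1 to 4. The mean of the 7 tubulin members lay 0.43, 0.39, 0.46 and 0.53 above it in the same order. Nephrectomized replicate 4 was the highest in both means. The lowest was replicate 1 for mitosis and replicate 2 for tubulins. Among the sham arrays the mitosis mean ran from -0.22 to 0.29 and the tubulin mean from -0.04 to 0.02. The part of dividing cells in the tubulin differences was not tested.

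**Figure D4:**
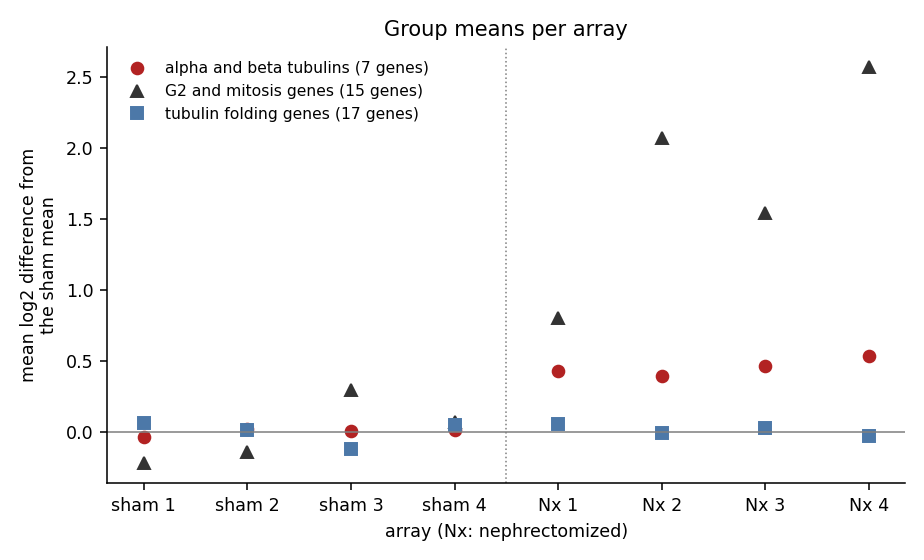
Mean log2 difference from the sham mean (y axis) on each of the 8 arrays (x axis) for the 7 tubulin members, 15 G2 and mitosis genes and 17 tubulin folding genes. In nephrectomized arrays the tubulins lie between 0.39 and 0.53, the mitosis genes between 0.80 and 2.57, and the folding genes between -0.03 and 0.05.

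Markers of other cell types were set beside these values. Leukocyte markers fell for 3 of 8 tested, S100a9, S100a8 and Adgre1. Cd52, the only 1 of the 8 with a positive difference, was at 0.32 without overlap and did not pass. The summed signal over 10 leukocyte markers was 13.2 to 14.8 in sham and 11.2 to 12.3 in nephrectomized kidneys. Of the leukocyte markers only Cd79b was not well above background on any array. With 1 array left out, Adgre1 was called in 0 of 8 fits (limma adjusted p of 0.068 to 0.134). S100a8 was called only without nephrectomized replicate 1, and S100a9 only without sham replicate 4 or nephrectomized replicate 1 or 2. For multiciliated cells, which are rich in axonemal tubulin, 2 of 5 markers on the array were tested and 0 passed, with Tekt2 and Dnai1 not above background anywhere and a summed signal of 0.272 to 0.360 in sham and 0.346 to 0.459 in nephrectomized kidneys. No marker of endothelium, podocytes, stroma, platelets or erythroid cells passed. The part of any of these in the tubulin differences was not tested.

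The array-to-array pattern within the groups was set side by side for the isotypes, all on the same arrays and the same scaling. Deviations from the group means over the 8 arrays were correlated for every pair of tested members. The highest was r = 0.64 between Tuba1c and Tubb5 and the lowest r = -0.85 between Tuba4a and Tuba8. As extremes of many pairs over 8 points, they are a description only. The genes whose deviations were most like those of Tuba4a, the alpha member with the highest signal, were Tent5a (r = 0.99), Plk3 (r = 0.97) and Ggt7 (r = 0.96). For Tubb2b, the beta member with the highest signal, they included Eid1 and Natd1 (r = 0.97 each). Tubb2b was read here by probe A_44_P187166, on which sham replicate 1 stood below the other sham arrays. The genes named are the top of 10189 genes ranked over 8 points and are a description only. With the group difference left in, r was -0.11 for Tent5a and -0.25 for Natd1.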

How the data were processed

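Per the labels' protocols, total RNA from 8 right kidney samples was extracted with an RNeasy kit. It was labelled with Cy3 and hybridised to 1-colour Agilent rat arrays. The authors deposited 1 file per array from Feature Extraction 10.5.1.1. Its processed signal is a linear intensity, background-subtracted and detrended within the array, per the file headers. A table of log2 values was deposited as well; it correlated at over 0.999 with the scanner values centred per probe, with a slope of 1.00, and its column medians lay between -0.0145 and 0.0153. Flags of 0 or 1 mark spots above background, saturated or outlying, per the file headers.

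Control spots (1639 of 45018) and outlier spots were left out, log2 values were taken and each array's 75th percentile subtracted. Probes well above background on at least 4 arrays were kept (25217), named through RefSeq accessions (GRCr8 table, 18713 of 41012 probes), and the probe with the highest mean stood for a gene, giving 20923 features. Limma 3.58.1 in R 4.3.3 (6 residual and 2.37 prior degrees of freedom) compared the groups with Benjamini-Hochberg adjustment and a threshold of 0.05. Differences of member probes carry the SE of the group means. The fit was tested on simulated arrays.

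The labels list separate samples without naming animals, so the p-values cover only sample-to-sample spread, which may be technical. The number of arrays limits the precision. Members and lists were chosen with earlier results of these data known. Named are all members, the other tested tubulins, up to 3 called genes of each list or else its 2 brightest, and the 3 genes most like the brightest alpha and beta member; a few items under this rule are not reported here. Same-numbered replicates deviated together at r = 0.14, 0.01, -0.06 and -0.21, so the numbers do not pair the samples. Alternatives were normexp, quantile and median scaling, 2 filters, every probe on its own, replicate and slide blocks, each slide alone, the deposited table and leaving out each array. Normexp used the median spot signal with an offset of 50, since the files hold no mean spot signal.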

Additional observations from a re-analysis of the deposited data

Results flagged for a closer look

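Of 30 groups of 4 arrays examined over the tested tubulin probes, 1 had an array far from the others. On Tubb2b probe A_44_P187166 sham replicate 1 read 4.62 against 5.09 in the nearest other sham array, a gap of 0.851 of the group's range, which is past Dixon's critical value for 4 values. Chance gives such a gap in about 1 in 20 groups.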

How the results depend on the processing

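Of the member probes, 11 were positive under all 19 alternatives, the exception being Tubb3, which was negative under 18 and 0.03 with normexp. The 2 filters, the fit of every probe on its own and the replicate and slide blocks could not change these differences. Where the groups did not overlap, single slides and leaving out an array could not change the sign. Counts of calls moved more. With normexp 16 list genes were called higher, and with probes above background on all 8 arrays 15, with 98 features lower (295 higher). Without a filter 17 features were higher, 3 lower, 1 member and 1 list gene were called. With slide as a block these were 69, 31, 3 and 4. With the replicate block, which pairs arrays that share a number and a slide, they were 6, 4, 0 and 0. On slide 1 alone and slide 2 alone all 4 counts were 0. Leaving out single arrays gave 18 to 162 features higher, 4 to 35 lower, 1 to 3 members and 1 to 17 list genes. Of the members, Tubb5 was called in all 8 of these, and Tuba1c and Tuba8 in none. The main counts were 157, 60, 5 and 7. The causes were not tested. Single slides hold fewer arrays, and the other filters give fewer or more features. No list gene was called lower under any of these settings. Of the member probes, that of Tubb3 and the lower probe of Tuba8, both dim, moved most with normexp. The dim Tubb6 probe A_44_P1022458 moved less, from 0.19 to 0.15.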

Other observations

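Some genes outside the tubulin family lay apart without passing the threshold. Calb1, the calcium-binding protein calbindin of the distal tubule, was at 0.46 ± 0.09 (limma SE; limma adjusted p = 0.0517), with every nephrectomized array above every sham array. Krt18, a keratin of simple epithelia, was at 0.45 ± 0.11 (limma adjusted p = 0.0960) while its usual partner Krt8 was at 0.03 ± 0.12. Haus4, a subunit of the augmin complex that branches spindle microtubules, was at 0.52 ± 0.11 (limma adjusted p = 0.0677). These genes were named after their values were seen.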
